A study of Mus musculus with 20 samples.

Results

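The genes described are the nuclear genes that encode subunits of the 5 complexes of oxidative phosphorylation (OXPHOS), read in hippocampus and cortex of mice with additional copies of Ube3a. They were taken from the deposited counts by symbol: names of Nduf followed by a, b, c, s or v and a number for complex I, Sdha to Sdhd for complex II, names that start with Uqcr for complex III, names that start with Cox4i, Cox5, Cox6, Cox7 or Cox8 for complex IV, and names that start with Atp5 for complex V, with pseudogene names left out. This gave 83 of 47729 genes, namely 36 of complex I, 4 of complex II, 8 of complex III, 18 of complex IV and 17 of complex V. Not every symbol is a subunit of the complex that its name gives: Ndufa4 is named for complex I but is now placed in complex IV, and Atp5s and Atp5sl are factors rather than subunits of complex V. Cox7a2l, counted in complex IV, is a supercomplex factor related to subunit 7a. All of these were kept where their names put them.

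RNA-seq was made from cortex and hippocampus of 5 WT and 5 Ube3aOE mice of strain C57Bl/6J at P7, 20 libraries from 10 mice, which the labels number 1 to 5 (WT) and 6 to 10 (Ube3aOE). Ube3aOE mice carry a bacterial artificial chromosome with Ube3a and its flanking sequence in a floxed form, and no promoter from another gene is described for it. The mice used for RNA-seq are described as Ube3a+2, the form with 2 transgene copies, and most work on these mice used 1 line (line E), although the labels of these libraries do not name the line. No other allele or treatment is given for either genotype. Each mouse is a separate animal, so genotype P values within a tissue measure the spread between mice. The 2 regions of a mouse share the animal. The main fits of region and interaction treat its 2 libraries as independent. A fit that pairs them (the mouse as a block) is an alternative.

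Complex I (NADH dehydrogenase) and complex II (succinate dehydrogenase) feed electrons into the inner mitochondrial membrane, complex III (the cytochrome bc1 complex) passes them to cytochrome c, and complex IV (cytochrome c oxidase) gives them to oxygen. Complexes I, III and IV pump protons, and complex V (ATP synthase) uses the gradient to make ATP. All subunits of complex II and most of the others are encoded in the nucleus, while a small set of core subunits of complexes I, III, IV and V is encoded in mitochondrial DNA. Neurons rely on this pathway to meet the cost of ion pumping and synaptic transmission, and its capacity rises in the rodent brain after birth.

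NRF1, the ETS factor GABP and YY1 are known regulators of OXPHOS genes, so the promoters of the members were searched for their letters. The windows ran from 250 bases before to 50 bases after the start of a gene in RefSeq (GRCm38.p6), and 69 of the 83 members had an entry. The NRF1 letters GCATGCGC, on either strand, stood in the windows of 10 of 69 members (14.5%) and of 3.05% of 27025 genes. The ETS letters CCGGAAG stood in 16 members (23.2%) and 9.93% of all genes, and the YY1 letters AAGATGG in 12 members (17.4%) and 7.28% of all genes. At least 1 of the 3 was found for 32 members (46.4%) and for 18.6% of all genes, with 14 of 32 members of complex I, 2 of 3 of complex II, 3 of 5 of complex III, 4 of 13 of complex IV and 9 of 16 of complex V. The genes set beside the members are all genes with a promoter entry, not matched to them in expression or GC content. A match is a description of letters and not a binding site.

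The promoters printed here were chosen because their genes were lower in hippocampus than in cortex in the fit over all 20 libraries (described further on). Their windows hold both NRF1 and ETS letters, except that Cox6b1 was added as the gene of complex IV with the smallest P value between regions. Of the 5 genes, only Cox6b1 was also called lower in WT mice alone and with the trend on transcript length and GC content removed. A link between the letters and the regional difference was not tested. Each sequence is the 250 bases before the gene's start, 5′ to 3′ on the gene's own strand, which is the minus strand for all 5, and capitals mark the matches. They lie at chr10:80406822-80407071 (Uqcr11), chr5:115348959-115349208 (Cox6a1), chr5:108434400-108434649 (Atp5k), chr9:44920743-44920992 (Atp5l) and chr7:30626115-30626364 (Cox6b1). The run of 10 capitals in Cox6a1 and in Atp5k holds the NRF1 letters on both strands, overlapping by 6 bases, and CTTCCGG is the ETS letters on the other strand. The NRF1 match of Uqcr11 crosses the start and is therefore not capitalised, and further ETS letters of Atp5k and Atp5l lie after the start.
Uqcr11: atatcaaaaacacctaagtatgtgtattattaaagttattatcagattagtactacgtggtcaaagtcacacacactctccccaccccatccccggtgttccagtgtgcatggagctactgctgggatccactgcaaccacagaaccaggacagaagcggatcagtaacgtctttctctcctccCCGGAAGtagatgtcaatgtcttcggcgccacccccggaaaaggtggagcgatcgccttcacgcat
Cox6a1: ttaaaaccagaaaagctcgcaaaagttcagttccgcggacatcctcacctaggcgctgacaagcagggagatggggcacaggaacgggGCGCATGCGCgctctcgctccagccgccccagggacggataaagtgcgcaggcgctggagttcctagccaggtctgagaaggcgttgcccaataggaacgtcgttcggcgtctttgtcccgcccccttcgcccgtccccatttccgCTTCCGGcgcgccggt
Atp5k: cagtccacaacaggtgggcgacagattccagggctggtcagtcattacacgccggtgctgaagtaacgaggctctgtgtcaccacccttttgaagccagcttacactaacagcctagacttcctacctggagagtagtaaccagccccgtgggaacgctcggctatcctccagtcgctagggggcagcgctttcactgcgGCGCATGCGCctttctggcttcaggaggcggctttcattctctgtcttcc
Atp5l: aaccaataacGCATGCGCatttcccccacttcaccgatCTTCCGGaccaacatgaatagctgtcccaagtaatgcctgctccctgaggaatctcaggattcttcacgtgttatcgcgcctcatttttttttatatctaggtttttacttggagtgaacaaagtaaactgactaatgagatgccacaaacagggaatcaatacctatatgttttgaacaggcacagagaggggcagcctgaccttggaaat
Cox6b1: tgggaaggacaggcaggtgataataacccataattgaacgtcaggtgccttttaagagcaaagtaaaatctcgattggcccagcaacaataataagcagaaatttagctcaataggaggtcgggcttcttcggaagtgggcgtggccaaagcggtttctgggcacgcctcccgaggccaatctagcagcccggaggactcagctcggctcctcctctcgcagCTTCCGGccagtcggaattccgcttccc

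Libraries held 14191093 to 16752326 counts on genes (69.7% to 81.2% of all reads of the file), and both the lowest total and the lowest share belonged to the cortex of WT mouse 2. Ube3a, the gene of the transgene, was at 54.4 to 76.8 CPM (counts per 1000000 of the TMM-normalised library total) in the 10 WT libraries and at 130 to 195 CPM in the 10 Ube3aOE libraries, with no overlap. Markers of hippocampus (4 genes summed) were at 329.4 to 519.3 CPM in hippocampus and 68.9 to 201.8 CPM in cortex, and markers of neocortex (5 genes) at 479.5 to 800 CPM in cortex and 147.4 to 361.7 CPM in hippocampus. The cortex of Ube3aOE mouse 8 held the most hippocampal and the least neocortical marker RNA of the cortices, and the hippocampus of WT mouse 2 the most neocortical marker RNA of the hippocampi. Markers of choroid plexus (4 genes) summed to 1935 CPM in the hippocampus of Ube3aOE mouse 7 and to at most 31.7 CPM in the WT hippocampi. Counts of sex-linked genes went against the labelled sex in WT mice 3 and 5, for which reason sex was not used in any fit.

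The 83 members took 1.09% to 1.28% of the counts of a library. Of these, 80 passed the filter on low counts in every fit. The 3 that did not are alternative isoforms of complex IV. Cox8c, a testis isoform, was listed at 0 in all 20 libraries, which allows at most 3 counts per library (0.179 to 0.211 CPM). Cox8b, an isoform of heart and skeletal muscle, reached at most 2 counts, and Cox7b2, another testis isoform, had 0 to 9 counts.

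To compare levels between genes, CPM were divided by the length of the transcript in kb. In WT hippocampus the median member stood at 97.9 CPM per kb in complex I, 112 in complex II, 201 in complex III, 135 in complex IV and 167 in complex V, and the corresponding medians in WT cortex were 103, 101, 197, 147 and 180 CPM per kb. The most abundant member per kb was Atp5b, the catalytic beta subunit of ATP synthase, at 764 ± 12.0 CPM per kb (mean ± SD, n = 5) in WT hippocampus and 733 ± 14.3 in WT cortex. Cox4i1, the common isoform of the regulatory subunit 4 of complex IV, and Ndufa4 followed at 566 ± 17.4 and 565 ± 30.5 CPM per kb in WT hippocampus, levels that did not differ beyond their spread. The highest of complex III was Uqcrq, a small subunit, at 307 ± 29.1 CPM per kb, and the highest of complex II was Sdhb, its iron-sulfur subunit, at 143 CPM per kb. At the lower end were Ndufb4 (34.2 CPM per kb), Sdhc (37.8 CPM per kb), Uqcrb (74.8 CPM per kb) and the factor Atp5s (9.05 CPM per kb). This order depends on the transcript taken for a gene: with the mean length of all its transcripts Sdha was the highest of complex II, Uqcrc2 of complex III (310 CPM per kb), and Ndufb7 the lowest of complex I. With the union of a gene's exons as its length, the medians in WT hippocampus were 58.7, 68.8, 106, 55.7 and 71.3 CPM per kb in complexes I to V, the lowest being that of complex IV. Cox6b1 (374 CPM per kb) and Atp5a1 (356 CPM per kb) then stood above Atp5b, and Uqcr10 (193 CPM per kb) was the highest of complex III.

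Complex IV has pairs of isoforms that replace each other in the complex, and in both regions the isoforms known as the common ones made up nearly all of the RNA. In WT hippocampus Cox4i1 stood at 566 CPM per kb and Cox4i2, an isoform known from lung, at 1.72. Likewise Cox6a1 stood at 447 and the muscle isoform Cox6a2 at 3.15, Cox6b1 at 429 and the testis isoform Cox6b2 at 3.03, and Cox7a2 at 284 and the muscle isoform Cox7a1 at 2.73 CPM per kb. Among the 3 genes of the c ring of ATP synthase, whose products differ only in the peptide that is cut off on import, Atp5g3 was the highest at 541 CPM per kb, with Atp5g1 at 124 and Atp5g2 at 82.5. Reads aligned to more than 1 place were left out by the authors' counting, so members with near-identical copies or pseudogenes may be listed too low. Of the members, 34 overlap another annotated gene, and reads over more than 1 gene were left out as well.

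**Figure D1:**
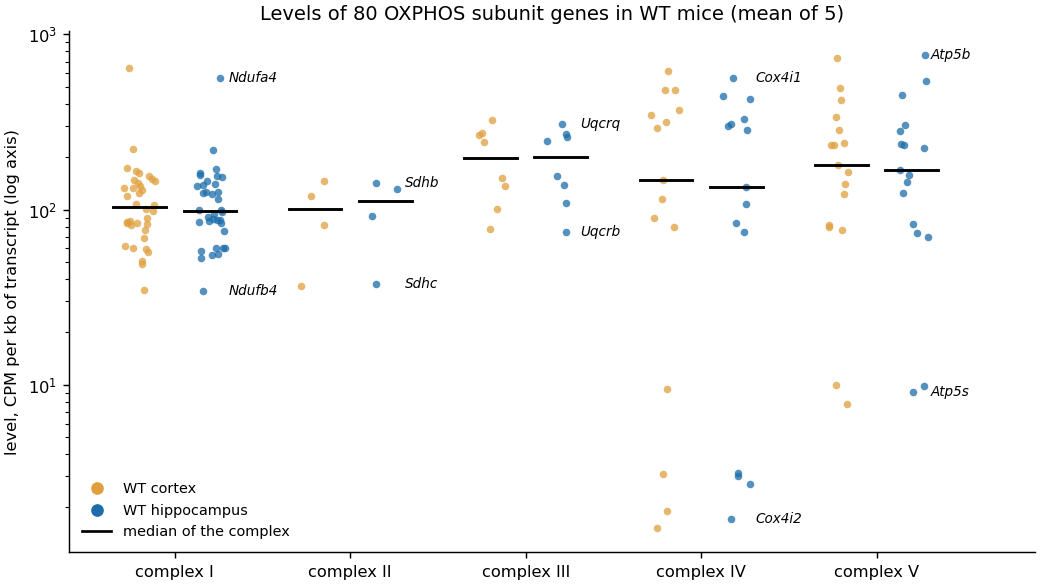
Levels of the 80 members that passed the filter in WT mice, in CPM per kb of transcript on a log axis, by complex, in cortex (orange) and hippocampus (blue). Each point is a member's mean over 5 mice and each bar the median of a complex, which in hippocampus runs from 97.9 (complex I) to 201 (complex III) CPM per kb, while Cox4i2 and Atp5s mark the low ends of complexes IV and V at 1.72 and 9.05.

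The regions were compared over all 20 libraries, hippocampus against cortex, with the 2 genotypes weighted equally. In this fit most subunits of complex IV and the small subunits of complex III were lower in hippocampus than in cortex, while Sdha of complex II was higher. The calls in complex III did not hold in other settings: 0 of its members were lower with library totals in place of TMM factors, in WT mice alone, without WT mice 3 and 5 (whose sex labels did not match) or with the trend on transcript length and GC content removed. In complex IV the number of lower members was 9, 3, 8 and 4 in these settings. Of the 80 members, 34 were lower in hippocampus at an adjusted P value under 0.05 (edgeR, quasi-likelihood F test), against 25.6% of 15661 genes tested, and 3 were higher, against 25.3%. By complex, 12 of 36 were lower in complex I, 0 of 4 in complex II, 5 of 8 in complex III, 11 of 15 in complex IV and 6 of 17 in complex V. The 3 higher members were Ndufs1, the largest core subunit of complex I, Sdha, the flavoprotein of complex II, and Atp5a1, the alpha subunit of ATP synthase. The differences were small, with a median log2 fold change of -0.08 over the members and -0.01 over all genes, and medians of -0.07 in complex I, 0.03 in complex II, -0.12 in complex III, -0.20 in complex IV and -0.05 in complex V. With library totals 16 members were lower and 10 higher, and without WT mice 3 and 5, 16 were lower and 3 higher. With the mouse as a block 38 were lower, the 4 additional ones being Ndufa6, Ndufb11, Ndufs5 and Sdhb, and the same 3 were higher. The 25.6% and 25.3% belong to the main fit. For library totals, the block and the fit without WT mice 3 and 5, the share of all genes is not given here. Whether these changes in count are particular to the members was not tested.

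By role, 1 of 7 core subunits of complex I was higher and 0 were lower, while 12 of its 29 accessory subunits were lower. In complex III all 5 small subunits were lower, and the core proteins and the Rieske protein Uqcrfs1 were not called. With the trend on length and GC content removed none of the 5 was called and all 5 lay above 0, from 0.00035 for Uqcrb to 0.05 for Uqcr11, while the core protein Uqcrc1 (0.09, adjusted P = 0.00346, edgeR) and Uqcrfs1 (0.11, adjusted P = 0.00339, edgeR) were called higher. In complex IV all 6 common isoforms were lower, namely Cox4i1, Cox6a1, Cox6b1, Cox7a2, Cox7b and Cox8a, of which Cox6b1 and Cox7b were also called with the trend removed. In complex V the 3 small membrane subunits Atp5j2, Atp5k and Atp5l were lower, as were 2 of 4 subunits of the peripheral stalk, and 0 of 3 c ring genes were called. Of the membrane subunits only Atp5j2 was called with the trend removed, and Atp5k then lay at 0.03. Summed over a complex, the CPM of hippocampus relative to cortex was 0.984 in WT mice for complex I, 1.07 for complex II, 1.01 for complex III, 0.916 for complex IV and 1.03 for complex V. In Ube3aOE mice the ratios were 0.919, 1.01, 0.927, 0.829 and 0.979. In bulk tissue, fewer cells of a type and less RNA per cell cannot be told apart.

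Sdha ranged from 226.5 to 249.2 CPM in the 5 WT cortices (228.9, 234.1, 226.5, 249.2 and 240.0 in mice 1 to 5) and was at 276.5, 258.6, 279.2, 254.3 and 268.8 CPM in the hippocampi of the same mice. In Ube3aOE mice 6 to 10 it was at 229.6, 217.7, 239.0, 238.6 and 242.8 CPM in cortex and at 260.8, 251.4, 259.6, 258.7 and 272.4 CPM in hippocampus. Every hippocampus lay above every cortex, in both genotypes. The log2 difference was 0.17 (SE 0.03, adjusted P = 0.000119, edgeR), with 0.20 in WT mice alone and 0.17 in Ube3aOE mice alone.

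Ndufs1 was at 137.2, 113.9, 124.1, 129.3 and 132.0 CPM in the cortices of WT mice 1 to 5 and at 147.9, 137.3, 145.0, 146.7 and 146.1 CPM in their hippocampi. In Ube3aOE mice 6 to 10 it was at 122.3, 117.7, 130.4, 134.6 and 135.1 CPM in cortex and at 145.3, 150.1, 151.2, 132.5 and 153.8 CPM in hippocampus. The hippocampus was the higher of the pair in 9 of 10 mice, the exception being Ube3aOE mouse 9. The log2 difference was 0.19 (SE 0.04, adjusted P = 0.000431, edgeR). The remaining members of complex II did not pass the test in the fit without a block: the values were -0.08 for Sdhb (adjusted P = 0.0688, edgeR), 0.03 for Sdhc and 0.04 for the membrane anchor Sdhd. With the mouse as a block Sdhb was called lower (-0.08, adjusted P = 0.0338, edgeR). Sdhd was called higher in WT mice alone and with the trend on length and GC content removed (0.07, adjusted P = 0.0275, edgeR).

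Ndufa1, a small accessory subunit of the membrane arm of complex I, was at 74.7, 67.5, 71.8, 70.2 and 79.1 CPM in WT cortex and at 50.4, 60.9, 61.0, 60.3 and 55.1 CPM in WT hippocampus (mice 1 to 5). In Ube3aOE mice 6 to 10 it was at 67.0, 70.1, 65.7, 63.6 and 73.9 CPM in cortex and at 57.3, 63.7, 44.0, 50.6 and 51.2 CPM in hippocampus. The hippocampus was lower in all 10 mice, by 0.34 on the log2 scale (SE 0.06, adjusted P = 3.48e-05, edgeR). Ndufa4 was also lower in hippocampus in all 10 mice, with 261.6 to 301.5 CPM in WT cortex against 238.7 to 271.5 in WT hippocampus, and 252.1 to 298.2 against 194.4 to 254.8 in Ube3aOE mice. Its log2 difference was -0.28 (SE 0.05, adjusted P = 6.54e-05, edgeR). For the core subunit Ndufv1 the log2 difference was -0.03, which was not called.

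Cox6b1, a subunit of complex IV that faces the intermembrane space, was at 286.6, 299.8, 307.2, 300.2 and 303.4 CPM in WT cortex and at 254.1, 270.3, 277.9, 266.5 and 256.3 CPM in WT hippocampus, with no overlap. In Ube3aOE mice it was at 291.7, 298.3, 281.1, 271.8 and 318.5 CPM in cortex and at 249.6, 277.9, 217.0, 223.7 and 226.6 CPM in hippocampus, where mouse 7 overlapped the cortices. The log2 difference was -0.23 (SE 0.04, adjusted P = 0.000101, edgeR), and the hippocampus was the lower one in all 10 mice. Cox4i1 (-0.18), Cox6a1 (-0.21), Cox7a2 (-0.18), Cox7a2l (-0.20), Cox7b (-0.20) and Cox8a (-0.29) also passed the test, as did Cox5a (-0.12), a subunit on the matrix side. Cox7a2l is known as a supercomplex factor related to subunit 7a, and supercomplexes were not measured here.

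In the fit without correction the muscle isoform Cox6a2 was the only member with a log2 difference beyond 0.5 that passed the test (-1.09, SE 0.33, adjusted P = 0.0105, edgeR). It was at 6.76, 4.56, 4.60, 7.44 and 8.78 CPM in the cortices of WT mice 1 to 5 and at 1.41, 1.85, 1.54, 4.83 and 1.10 CPM in their hippocampi. In Ube3aOE mice 6 to 10 it was at 7.69, 8.27, 4.00, 4.46 and 8.93 CPM in cortex and at 1.37, 5.86, 1.83, 3.09 and 9.83 CPM in hippocampus. All WT mice and 4 of 5 Ube3aOE mice were lower in hippocampus, and mouse 10 was not. The difference was -1.56 in WT mice alone (adjusted P = 0.00517, edgeR) and -0.59 in Ube3aOE mice alone (adjusted P = 0.415, edgeR), and the test between the genotypes did not pass (interaction 0.98, SE 0.66, adjusted P = 0.997, edgeR). Without the mice of mismatched sex the call for Cox6a2 was lost. The other low isoforms gave values of 0.51 for Cox7a1 (adjusted P = 0.0554, edgeR; 0.67 and adjusted P = 0.0122 with the trend on length and GC content removed), 0.25 for Cox6b2 and 0.03 for Cox4i2.

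In complex V, Atp5e, the epsilon subunit of the central stalk, and Atp5j2, a small membrane subunit, had the smallest P values, with log2 differences of -0.31 (SE 0.06) and -0.22 (SE 0.04). Atp5a1 was higher by 0.07 (SE 0.03, adjusted P = 0.0312, edgeR), and its partner Atp5b was higher in hippocampus in all 10 mice but did not pass the test (0.05, adjusted P = 0.134, edgeR). In complex III the smallest P values were those of Uqcrb (-0.14, SE 0.04, adjusted P = 0.00961, edgeR) and Uqcr10 (-0.14, SE 0.05). The core protein Uqcrc1 and the Rieske protein Uqcrfs1 had values of 0.04 and 0.08 (adjusted P = 0.34 and 0.0506, edgeR). The calls of Atp5a1, Uqcr10, Uqcr11 and Uqcrq depended on single mice: Atp5a1 lost its call without mouse 3, 5, 6, 7 or 10, Uqcr10 without mouse 2, 5, 8, 9 or 10, Uqcr11 without mouse 1, 2, 3, 5, 9 or 10, and Uqcrq without mouse 2 or 10.

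The regions were then compared in each genotype alone. In WT mice, 6 members were lower, against 17.6% of 15088 genes, and 7 were higher, against 20.4%, with a median log2 fold change of -0.01. In Ube3aOE mice, 22 members were lower, against 12.5% of 15147 genes, and 2 were higher, against 14.4%, with a median of -0.12. With the mouse as a block 30 were lower in Ube3aOE mice, and the share of all genes in that fit is not given here. The lower members in WT mice were Ndufa1, Ndufa4, Ndufv3, Cox6a2, Cox6b1 and Cox8a, and the higher ones were Ndufa5, Ndufs1, Sdha, Sdhd, Uqcrfs1, Atp5a1 and Atp5g3. All 5 medians were lower in Ube3aOE mice: -0.12 against -0.01 in complex I, -0.01 against 0.11 in complex II, -0.20 against 0.02 in complex III, -0.28 against -0.08 in complex IV and -0.09 against 0.01 in complex V. The test of that difference, the interaction of genotype and region, called no member (smallest adjusted P = 0.997, edgeR).

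**Figure D2:**
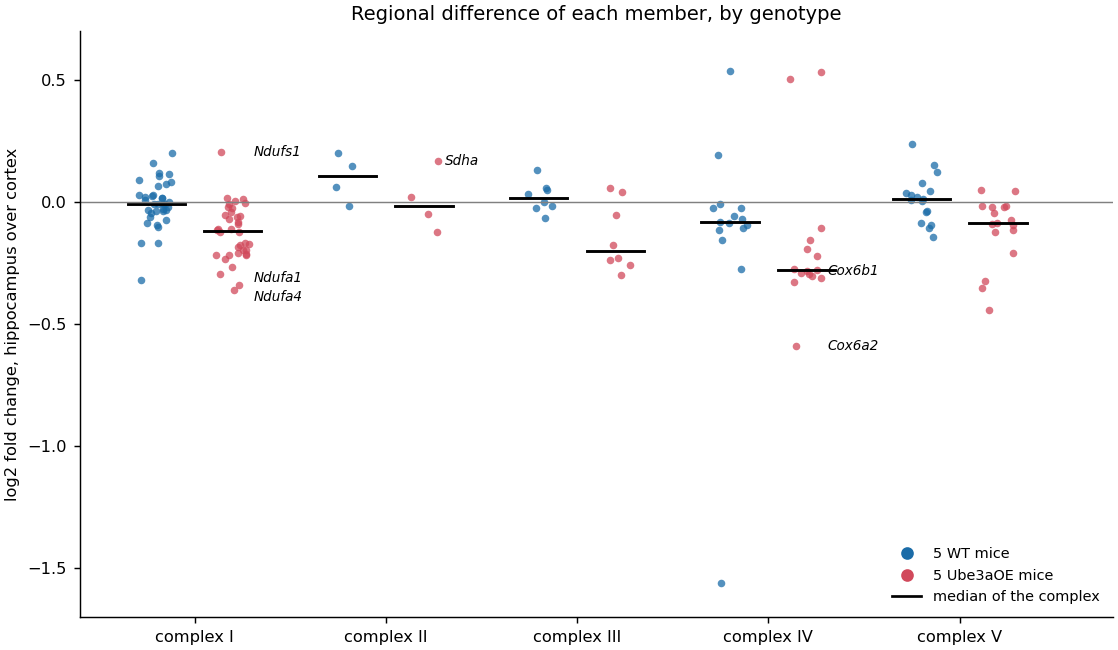
Log2 fold change of hippocampus over cortex for the 80 members, by complex, fitted in 5 WT mice (blue) and in 5 Ube3aOE mice (red). Each point is a member and each bar the median of a complex, lowest in complex IV at -0.08 in WT and -0.28 in Ube3aOE mice, and names stand beside 6 members in the Ube3aOE columns, of which Ndufs1 and Sdha lie above 0 and Cox6a2 lowest at -0.59.

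Transcript length moved with the difference between regions. The log2 fold change of all genes rose by 0.0331 per doubling of transcript length, and the members are short, with a median of 737 bases against 2770 for all genes in this fit. With each library's trend on length and GC content removed, 11 members were lower, against 26.8% of all genes, and 15 were higher, against 24.9%, with a median of 0.01. The small subunits of complex III lost all 5 calls, and the 3 c ring genes came out higher, with 0.10 for Atp5g1, 0.13 for Atp5g2 and 0.11 for Atp5g3. Complex IV had the lowest median (-0.05), with 4 lower members. A total of 2 higher members (Ndufs1 and Sdha) and 11 lower ones (Ndufa1, Ndufa4, Ndufb6, Ndufs4, Ndufv3, Cox6a2, Cox6b1, Cox7a2l, Cox7b, Atp5e and Atp5j2) passed both with and without the correction. Of these, Ndufs1, Sdha, Ndufa1, Ndufa4, Ndufv3 and Cox6b1 also passed in each genotype alone and when library totals replaced TMM factors. Ndufv3, Ndufa5, Ndufb6 and Ndufs4 fall outside the rule for naming genes and were named after their values were seen.

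Markers of some cell types moved with the regions as well. Markers of neurons (8 of 8 detected) summed to 5395 to 6513 CPM in WT hippocampus and 6521 to 6925 CPM in WT cortex. Markers of astrocytes (5 of 5 detected) summed to 1195 to 1747 CPM in WT hippocampus and 802.6 to 991.9 CPM in WT cortex, and those of dividing cells (3 of 3) to 37.8 to 44.5 against 20.0 to 25.8 CPM. In WT mice the sums for oligodendrocyte lineage, microglia, endothelium and blood overlapped between the regions. Those of the oligodendrocyte lineage, for example, were 325.9 to 431.8 CPM in WT hippocampus and 311.5 to 421.2 CPM in WT cortex. No marker of these lists was at 0 in a group. Their part in the differences of the members was not tested. Leaving out the libraries that stand apart, a choice made after the data were seen, gave 34 lower and 4 higher members. The share of all genes in that fit is not given here.

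Other genes of the pathway were read beside the members. Of 44 assembly factors tested, 12 were lower (27.3%) and 7 higher (15.9%) in hippocampus (median -0.05), beside 25.6% and 25.3% of all genes. The smallest P values among them were those of Coa7, a factor for complex IV (-0.32, adjusted P = 8.72e-06, edgeR), and Ndufaf4, a factor for complex I, which was higher (0.28, adjusted P = 4.55e-05, edgeR). Of 5 OXPHOS genes that the name rule does not take, 2 were lower: Atpif1, the inhibitor of ATP synthase (-0.35), and Cycs, cytochrome c (-0.16). Of 10 regulators, 2 were higher (20.0%, beside 25.3% of all genes), the ETS factor Gabpa (0.29, adjusted P = 0.000236, edgeR) and the coactivator Ppargc1a (0.21, adjusted P = 0.0157, edgeR), and 1 was lower. Gabpa lies beside the member Atp5j, and the annotation has them overlap, and the part of this overlap in their values was not tested. Of 11 mRNAs from mitochondrial DNA, 0 were called in either direction by edgeR, and 0 had an unadjusted P value under 0.05. Of the lists outside the pathway, 55 of 92 cytosolic ribosomal proteins (59.8%, median -0.15), 30 of 76 mitochondrial ribosomal proteins (39.5%, -0.09) and 13 of 46 proteasome genes (28.3%, -0.08) were called lower, beside 25.6% of all genes. The shares of assembly factors, regulators and proteasome genes were near those of all genes or below them.

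The genotypes were compared within each tissue, with the same mice in both. In hippocampus no member passed an adjusted P value under 0.05 (edgeR; smallest adjusted P = 0.668), and the same holds for DESeq2 and limma voom, while 0.00657% of 15220 genes passed. Of the 80 members, 72 lay below 0 (lower in Ube3aOE mice), with a median log2 fold change of -0.11 against 0.002 over all genes. Before adjustment, 26 members below 0 had a P value under 0.05, against 3.5% of all genes, and 0 above 0 did. They were 11 of 36 in complex I, 1 of 4 in complex II, 3 of 8 in complex III, 7 of 15 in complex IV and 4 of 17 in complex V. The 95% interval lay within 0.5 of 0 on the log2 scale for 76 of the 80 members. Medians were -0.11 in complex I, -0.06 in complex II, -0.14 in complex III, -0.14 in complex IV and -0.08 in complex V. Within complex I the 7 core subunits had a median of -0.05 and the 29 accessory subunits, all of which lay below 0, a median of -0.12.

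The summed CPM of a complex was then read in each mouse. For complex IV it was 1944, 2028, 2076, 2107 and 2060 CPM in the hippocampi of WT mice 1 to 5 and 1925, 2096, 1700, 1768 and 1731 CPM in those of Ube3aOE mice 6 to 10. Mice 6, 8, 9 and 10 lay below all WT mice, mouse 6 by the least, and mouse 7 lay within the WT range. For complex I the sums were 3366 to 3558 CPM in WT mice and 3327, 3560, 3071, 3170 and 3083 CPM in mice 6 to 10, with the same 4 mice below and mouse 7 above all WT mice. Relative to the WT mean, the mean of Ube3aOE mice was 0.930 in complex I, 0.950 in complex II, 0.936 in complex III, 0.902 in complex IV and 0.957 in complex V.

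In complex IV the smallest P value was that of Cox7a2, which was at 188.7, 199.2, 188.4, 181.8 and 178.8 CPM in WT hippocampi and at 162.5, 183.5, 142.2, 142.7 and 141.1 CPM in those of Ube3aOE mice 6 to 10. Mouse 7 was the one that overlapped WT mice. The log2 difference was -0.28 (SE 0.08, P = 0.00288, adjusted P = 0.668, edgeR), and the exact permutation test gave P = 0.0238. Cox7a2 was picked by its P value in these same libraries, so the permutation value is no separate support. Atp5j2 was the only member whose groups did not overlap, which held for 0.631% of all genes, with 68.9, 68.1, 67.6, 73.7 and 71.2 CPM in WT mice and 64.4, 65.8, 53.9, 63.3 and 58.1 CPM in Ube3aOE mice. Its difference was -0.20 (SE 0.06, adjusted P = 0.668, edgeR). The exact permutation test gave P = 0.00794, two-sided, the smallest that 5 against 5 mice can give. Any gene without overlap has this value, so it adds nothing to the lack of overlap.

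Among complexes I, II, III and V the smallest P values in hippocampus were those of Ndufa4 (-0.25, SE 0.08), Sdhd (-0.15, SE 0.06), Uqcr11 (-0.26, SE 0.09) and Atp5e (-0.25, SE 0.08), all with an adjusted P value of 0.668 (edgeR). Uqcr11, a small subunit of complex III, was at 101.8, 105.5, 108.7, 118.7 and 113.5 CPM in WT mice and at 104.0, 107.6, 81.7, 81.1 and 85.5 CPM in Ube3aOE mice. Mice 6 and 7 lay among the WT values and mice 8, 9 and 10 below them. Atp5e was at 122.3 to 131.5 CPM in WT mice and at 109.7, 128.8, 96.8, 104.1 and 96.9 CPM in mice 6 to 10, of which mouse 7 alone lay within the WT range. Values for the large catalytic subunits were -0.04 for Sdha, -0.05 for Atp5a1, -0.02 for Atp5b and 0.02 for Ndufs1, whose 95% interval ran from -0.10 to 0.13.

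The low isoforms Cox6a2 and Cox6b2 had values above 0 that did not pass the test. Cox6a2 had a log2 fold change of 1.03 (SE 0.60, adjusted P = 0.693, edgeR) and Cox6b2 of 0.79 (SE 0.44, adjusted P = 0.688, edgeR), and both intervals included 0. Cox6b2 was at 2.11, 0.80, 1.54, 2.99 and 0.92 CPM in WT hippocampi and at 1.25, 4.29, 1.77, 2.38 and 4.91 CPM in Ube3aOE hippocampi. The high values of both isoforms came from mice 7 and 10, and WT mouse 4 was the highest WT mouse for both. For Cox7a1 and Cox4i2 the values were 0.33 and -0.41, and neither passed. Skeletal muscle markers (4 genes summed) were at 10.7 to 13.5 CPM in WT and 11.0 to 13.4 CPM in Ube3aOE hippocampi.

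**Figure D3:**
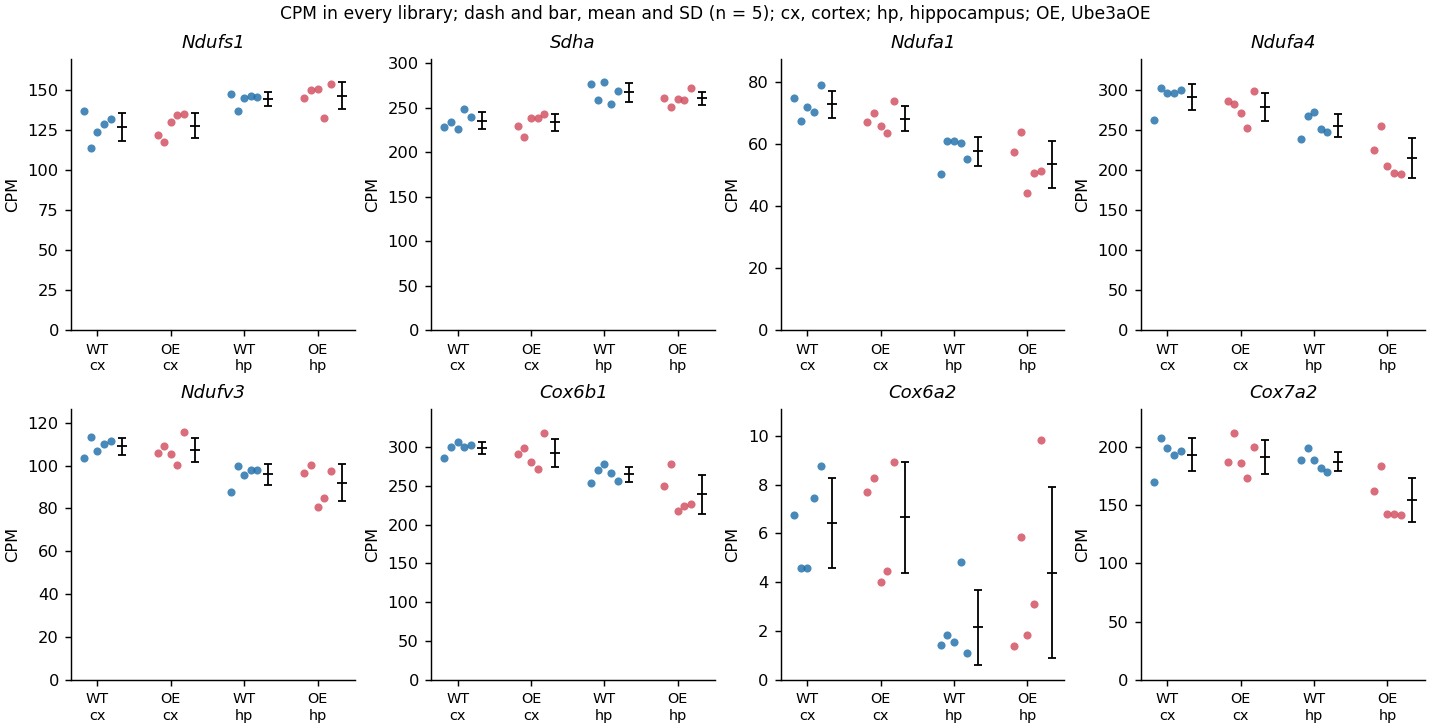
CPM (TMM-normalised, linear axes from 0) of 8 members in every library, in cortex (cx) and hippocampus (hp) of WT and Ube3aOE (OE) mice. Points are mice, and the dash and bar beside them are the mean and SD of 5; Sdha is higher and Ndufa1, Ndufa4, Ndufv3 and Cox6b1 are lower in hippocampus in all 10 mice, and 3 of the 5 Ube3aOE hippocampi have Cox7a2 at 141.1 to 142.7 CPM.

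In the hippocampi the members' level in a library moved with a trend on transcript length. The slope of the deviation of all genes from the WT mean, per doubling of length, was 0.034, -0.002, 0.072, 0.060 and 0.089 in the hippocampi of Ube3aOE mice 6 to 10, and between -0.027 and 0.028 in WT mice. With the trend on length and GC content removed, 58 of 80 members lay below 0, the median was -0.04 and 10 had an unadjusted P value under 0.05. The core subunits of complex I then had a median of 0.01 and the accessory ones of -0.05. Choroid plexus markers moved with mouse 7, and without that mouse 41 members had an unadjusted P value under 0.05, with a median of -0.15 and 0 calls after adjustment. Without Ube3aOE mouse 8, 9 or 10, or WT mouse 3, the count was 16, 15, 15 or 16, and it was 9 without both mice of mismatched sex. The share of all genes in these alternative fits is not given here, and the 3.5% above belongs to the main fit of 10 mice. Whether these changes in count are particular to the members was not tested.

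**Figure D4:**
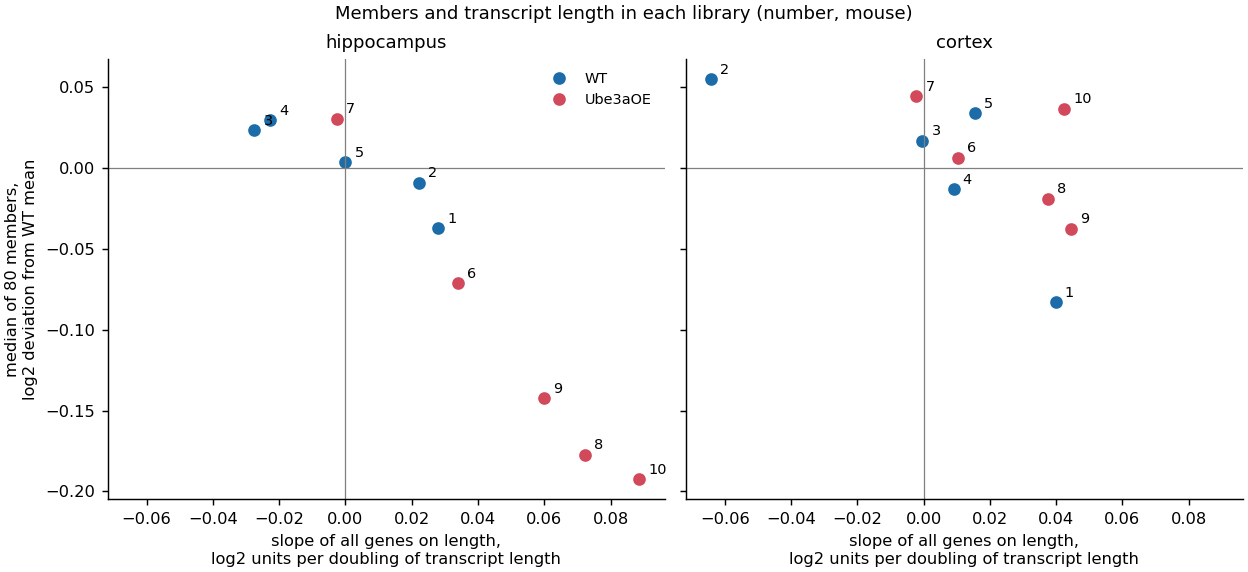
Median log2 deviation of the 80 members from the WT mean (vertical) against the slope of the deviation of all genes per doubling of transcript length (horizontal), 1 point a library, numbered by mouse, in hippocampus and cortex. In hippocampus Ube3aOE mice 8, 9 and 10 lie at the lower right, with medians of -0.18, -0.14 and -0.19, mouse 7 at 0.03 and the WT mice between -0.04 and 0.03. In cortex WT mice 1 and 2 have slopes of 0.040 and -0.064 and medians of -0.08 and 0.06. Ube3aOE mice 9 and 10 have cortical slopes of 0.044 and 0.042 and medians of -0.04 and 0.04.

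In the same comparison, cytosolic ribosomal proteins lay below 0 for 81 of 92 genes (median -0.11), mitochondrial ribosomal proteins for 70 of 76 (-0.08) and proteasome genes for 40 of 46 (-0.10), beside 32 of 44 assembly factors (-0.06). Messenger RNAs from mitochondrial DNA, which encode the partners of these subunits in complexes I, III, IV and V, lay below 0 for 5 of 10 (median -0.002). None of the 10 regulators passed the adjusted threshold in hippocampus (edgeR), where Ppargc1b, a coactivator, had the smallest P value (0.49, SE 0.16, adjusted P = 0.668). That was the 1 regulator with an unadjusted P value under 0.05.

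In cortex no member passed an adjusted P value under 0.05 (edgeR; smallest adjusted P = 0.96; also 0 by DESeq2 and limma voom), against 0.00669% of 14947 genes, and 46 of 80 lay above 0 (higher in Ube3aOE mice), with a median of 0.01. A total of 1 member had an unadjusted P value under 0.05, against 2.48% of all genes in that direction: Atp5g3, at 343.2, 366.3, 363.5, 334.5 and 353.3 CPM in WT cortices and at 375.3, 371.0, 377.0, 380.5 and 375.1 CPM in Ube3aOE cortices. All Ube3aOE mice lay above all WT mice, which was so for 0.301% of genes, and the log2 difference was 0.10 (SE 0.04, adjusted P = 0.96, edgeR). In hippocampus the same gene was at 365.9 to 395.9 CPM in WT mice and 322.2 to 393.1 CPM in Ube3aOE mice, a difference of -0.14 (SE 0.06, adjusted P = 0.668, edgeR).

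Complexes I, II and IV had medians of -0.002, 0.01 and 0.01 in cortex, and complexes III and V of 0.02 and 0.02, with all 8 members of complex III above 0. Single mice decided these signs: without WT mouse 1, 33 of 80 members lay above 0 (median -0.02), and without Ube3aOE mouse 10, 35 did (median -0.004), with 5 of 8 members of complex III above 0 in both cases. The smallest P values were those of Ndufc1 (0.11, SE 0.05), Sdhd (0.04, SE 0.05), Uqcr11 (0.07, SE 0.07) and Cox6b2 (0.25, SE 0.19) in complexes I, II, III and IV, none of which passed the unadjusted threshold in this fit. The 95% interval lay within 0.5 of 0 for 76 of 80 members, so changes beyond that size were outside the interval for all but 4, which were low isoforms of complex IV. With the trend on length and GC content removed, 64 members lay above 0, with a median of 0.04. Messenger RNAs from mitochondrial DNA lay below 0 in cortex for 9 of 10 genes (median -0.23), and 0 had an unadjusted P value under 0.05 (edgeR).

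The difference between the genotype effects, hippocampus minus cortex, was tested over all 20 libraries. No member passed (edgeR; smallest adjusted P = 0.997), nor did any of 15661 genes (0.0%). At an unadjusted P value under 0.05, 18 members lay below 0, against 1.94% of all genes, and 0 above. In all, 75 of 80 were below 0, with a median of -0.10 against 0.0006 over all genes, and medians of -0.10, -0.06, -0.17, -0.16 and -0.07 in complexes I to V. With the mouse as a block the number with an unadjusted P value under 0.05 was 27 and the smallest adjusted P value 0.797 (edgeR). For that fit the share of all genes is not given here. Ndufc1 had the smallest P value (-0.32, SE 0.09, adjusted P = 0.997, edgeR). It was at 45.4 to 48.2 CPM in WT cortices and 46.2 to 54.0 in Ube3aOE cortices, and at 46.3 to 52.5 CPM in WT hippocampi and 36.3 to 48.5 in Ube3aOE hippocampi. The groups overlapped in both tissues.

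**Figure D5:**
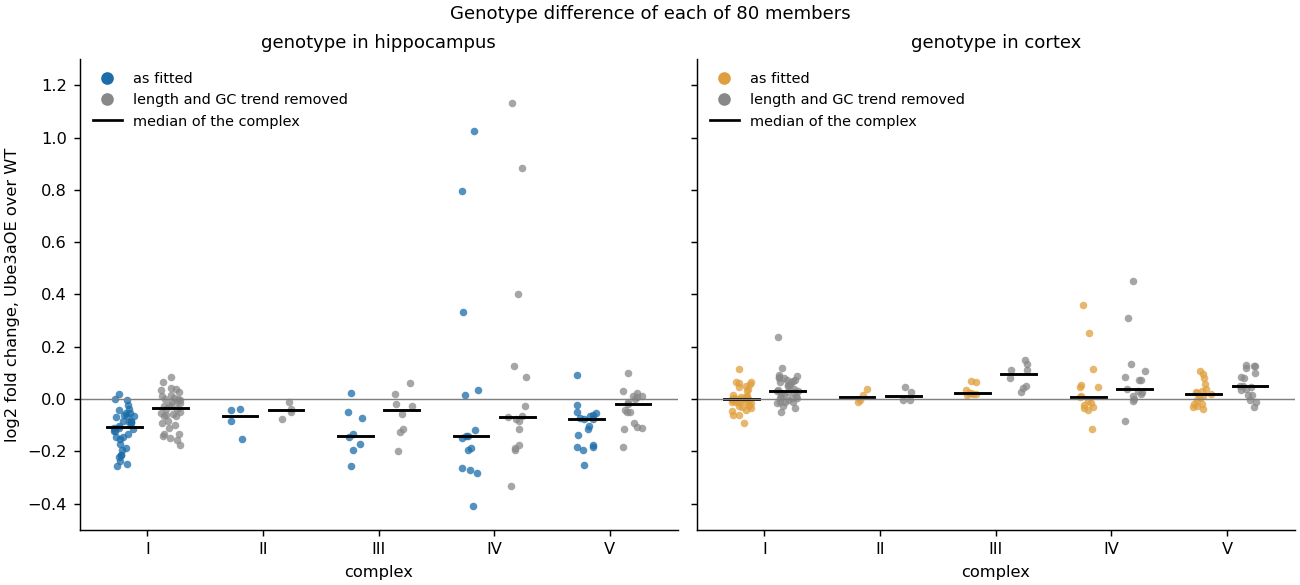
Log2 fold change of Ube3aOE over WT for the 80 members, by complex, in hippocampus (left) and cortex (right), as fitted (coloured) and with the trend on length and GC content removed (grey); points are members and bars are medians. As fitted, 72 of 80 members lie below 0 in hippocampus and 34 of 80 in cortex, and with the trend removed 58 and 16, with the low isoforms of complex IV at the extremes.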

How the data were processed

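The authors made stranded mRNA libraries and deposited 1 file of raw counts per library, whole numbers of reads per gene for 47729 genes without normalization. The submitters' processing notes name HISAT2 2.1.0, HTSeq 0.11.2 and GRCm38 (mm10); the annotation and the strand setting are not given in the sources used here. The 5 lines of reads not counted on a gene were left out. Lengths, GC contents and overlaps were taken from GENCODE M21, which matched 47224 identifiers and all 83 members.

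Counts were tested in R 4.3.3 with edgeR 4.0.16 (filterByExpr, TMM, robust quasi-likelihood F test, two-sided, Benjamini-Hochberg over all genes tested), within each tissue for genotype and over 20 libraries for region and interaction, at an adjusted P value under 0.05 and a border of 0.5 on the log2 fold change. Standard errors and 95% intervals rest on the spread between the libraries of a group, and depth was 14191093 to 16752326 counts. Without a block, the fits of region and interaction do not use the pairing of a mouse's 2 libraries. Single genes were compared by exact permutation tests over the 10 mice of a tissue. Tables and plots used Python 3.11.15, pandas 2.3.3 and matplotlib 3.10.9. The edgeR genotype fits were tested on simulated counts.

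The members, lists and motifs were chosen with earlier results of these data known, and lists are described by counts and medians without a test. Named are members past the thresholds, the 2 with the smallest P value per complex between regions and the first per complex and tissue between genotypes, isoform pairs, core subunits and the highest and lowest per kb, and from other lists the 2 with the smallest P value in a fit. A core subunit that the rule names is not reported here.

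The 2 libraries of a mouse come from 1 animal by the labels. After removal of group means they correlated across all genes with a median of 0.215 (-0.0367 to 0.248, above 0.1 in 9 of 10 mice), so the mouse as a block was an alternative for region and interaction. The others were DESeq2 1.42.0 and its size factors, limma 3.58.1 voom, library totals, no filter, a fit with each library's trend on GC content and length taken out (a spline of 5 degrees of freedom for each), all 20 libraries in 1 fit, each genotype alone, each mouse left out in turn, and the mice whose sex-linked counts went against their labels left out. Marker lists were written from general knowledge.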

Additional observations from a re-analysis of the deposited data

Results flagged for a closer look

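Among 92 groups of 5 mice examined, 5 held a mouse whose gap to the nearest other exceeded Dixon's 95% critical value of 0.71 of the group's range, about the 1 in 20 groups that chance gives. In WT hippocampus, mouse 2 was the lowest for Ndufs1 at 137.3 CPM (145 to 147.9 in the others) and for Atp5g3 at 365.9 CPM (388.2 to 395.9). That hippocampus also held the most neocortical marker RNA of the WT hippocampi, and its part in these values was not tested. In WT hippocampus, mouse 4 was the highest for Cox6a2 at 4.83 CPM (1.10 to 1.85 in the others). In WT cortex, mouse 1 was the lowest for Ndufa4 at 261.6 CPM (295.3 to 301.5), and mouse 3 the highest for Cox7a1 at 1.43 CPM (0.498 to 0.748).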

How the results depend on the processing

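The 34 lower and 3 higher members between regions became 38 and 3 with the mouse as a replicate block, 11 and 15 with the trend on length and GC content removed, 15 and 17 with both, 16 and 10 with library totals, 6 and 7 in WT mice alone (7 and 6 with the block), and 22 lower in Ube3aOE mice alone (30 with the block). DESeq2 gave 5 higher members, and leaving out the mice with mismatched sex gave 16 lower ones. Leaving out each mouse gave 25 to 36 lower and 2 to 5 higher, the latter without WT mouse 2. The share of all genes is given only for the main fit, the trend removed without a block and each genotype alone without a block. The median of -0.08 became 0.0061 without the trend and 0.0054 with the block as well. Without the trend, 8 of the called members turned direction (Ndufb2, Ndufb7, Atp5k and the 5 small subunits of complex III), and the medians of complexes I, III and V turned to 0.0078, 0.0265 and 0.0259. In complex III, without the trend, alone and with the block, the values were 0.0288 and 0.0301 for Uqcr10, 0.0458 and 0.0466 for Uqcr11, 0.0243 and 0.0218 for Uqcrq and 0.00035 and 5.44e-06 for Uqcrb. In WT mice alone Uqcr11 was at 0.0320, and 0.0328 with the block. The cause was not tested.

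In hippocampus the 26 members with an unadjusted P value under 0.05 became 10 without the trend (median -0.0393), 9 without the mice of mismatched sex, which leaves 3 WT mice, and 15 to 41 on leaving out each mouse. No alternative gave a genotype or interaction call in either tissue. Without the libraries that stand apart (the cortex and hippocampus of WT mouse 2, the hippocampus of mouse 7 and the cortex of mouse 8), an alternative chosen after seeing the data, the count of members with an unadjusted P value under 0.05 in hippocampus was 38. These counts stand without the share of all genes in the same fit. Of 670 comparisons of a named member with an alternative, 480 were between regions, where every member compared had a call. Of these 480, 10 turned direction and 72 others lost their call. Those that turned are not counted among the 72, although with the trend removed they had no call either. The remaining comparisons were between genotypes, where no member had a call to lose. Of 492 comparisons of a median, 33 turned direction, 15 between regions and 18 between genotypes in cortex, where medians lay near 0.

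With 5 mice a group, 76 of 80 members had genotype intervals within 0.5 of 0, while low isoforms of complex IV, at 19 to 164 counts for Cox6a2, did not allow such a limit.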
